A study of Mus musculus with 6 samples.

Results

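Immediate early genes are switched on within minutes of a stimulus by factors that are already present in the cell, without new protein synthesis. This account covers 9 of them (Fos, Fosb, Jun, Junb, Egr1, Atf3, Ier2, Btg2 and Dusp1), chosen by name out of 32285 genes in the count table of a single-cell RNA-Seq (scRNA-Seq) study of striatal astrocyte maturation. Their levels were followed across the cell types named by the authors, across astroglial sub-clusters, between cycling and non-cycling cells and between ages. All 9 had at least 1 UMI (unique molecular identifier, 1 captured RNA molecule) in each of the 6 libraries.

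The libraries came from the striatum of wild-type male C57BL/6 mice 3 days (P3) or 3 months (3m) after birth, with 3 independent preparations of pooled animals per age. Tissue was dissociated enzymatically at 37 °C, and cells carrying the astrocyte surface antigen ACSA2 were enriched on magnetic beads before droplet capture. No animal carried a transgene or received a treatment, so age was the only labelled difference, and the other cell types described here are those that passed through the astrocyte enrichment. Of 16690 barcodes, 14373 carried an annotation, and 9992 of these were astroglial (8874 at P3 and 1118 at 3m).

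Fos and Fosb pair with Jun and Junb to form the AP-1 transcription factor. Its sites were searched for below with the pattern TGANTCA, in which any base was allowed at N. Egr1 encodes a zinc finger transcription factor driven by Erk signalling, and Atf3 encodes a stress-induced factor of the ATF/CREB family. Ier2 encodes a small nuclear protein of the same early wave. Btg2 encodes an antiproliferative protein that works with mRNA deadenylases, and Dusp1 encodes a phosphatase that switches off p38, Jnk and Erk kinases. In brain, these transcripts serve as markers of recent stimulation of neurons and glia, and they are also known to rise when tissue is taken apart into single cells. The same dissociation procedure is described for both ages, and its part in the levels was not tested.

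Promoters were examined for the letters TGACGT, the core of the cAMP response element bound by CREB. RefSeq promoter sequences (GRCm38.p6) were matched for 7 of the 9 genes. The letters TGACGT stood on either strand, within the 250 bases before the transcription start, in 4 of the 7 (Fos, Atf3, Btg2 and Dusp1), and in 6.47% of all 32851 promoters of that length. The 4 windows are shown with these letters in capitals (ACGTCA where the match lies on the other strand), and that of Jun is shown as one without them.
Fos, chr12:85473640-85473889, plus strand: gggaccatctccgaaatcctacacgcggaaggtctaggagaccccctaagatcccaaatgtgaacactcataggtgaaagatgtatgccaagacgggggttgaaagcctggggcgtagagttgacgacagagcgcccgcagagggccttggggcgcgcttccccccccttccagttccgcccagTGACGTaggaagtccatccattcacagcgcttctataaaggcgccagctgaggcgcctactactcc
Atf3, chr1:191183334-191183583, minus strand: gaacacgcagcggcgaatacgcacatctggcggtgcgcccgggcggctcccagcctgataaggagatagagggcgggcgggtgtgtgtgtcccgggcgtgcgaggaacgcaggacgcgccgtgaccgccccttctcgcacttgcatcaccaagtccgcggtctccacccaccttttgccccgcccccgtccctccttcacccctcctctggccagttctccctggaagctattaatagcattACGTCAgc
Btg2, chr1:134079156-134079405, minus strand: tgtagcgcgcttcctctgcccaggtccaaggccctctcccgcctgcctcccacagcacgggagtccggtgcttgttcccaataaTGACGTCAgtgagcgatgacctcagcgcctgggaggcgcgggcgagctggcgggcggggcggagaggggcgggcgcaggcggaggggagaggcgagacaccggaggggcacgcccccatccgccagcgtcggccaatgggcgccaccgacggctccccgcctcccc
Dusp1, chr17:26508473-26508722, minus strand: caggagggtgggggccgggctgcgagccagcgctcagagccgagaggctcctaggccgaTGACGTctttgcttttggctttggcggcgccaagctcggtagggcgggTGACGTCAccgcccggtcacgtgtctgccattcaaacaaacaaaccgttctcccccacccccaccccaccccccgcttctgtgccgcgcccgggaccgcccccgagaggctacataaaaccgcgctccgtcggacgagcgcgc
Jun, chr4:95052223-95052472, minus strand: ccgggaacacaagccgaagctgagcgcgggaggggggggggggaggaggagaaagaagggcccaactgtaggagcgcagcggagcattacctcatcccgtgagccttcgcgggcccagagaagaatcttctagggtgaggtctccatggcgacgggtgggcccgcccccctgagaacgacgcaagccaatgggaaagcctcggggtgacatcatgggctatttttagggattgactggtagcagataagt
The match began 66 bases before the start in Fos and 8 bases before it in Atf3. Btg2 and Dusp1 held the full palindrome TGACGTCA, which overlaps TGACGT on both strands and was present in 1.55% of all promoters; these matches began 166 bases before the start in Btg2 and 143 bases before it in Dusp1, which had a further TGACGT match at 191 bases. The AP-1 search pattern TGANTCA, with any base at N, was found in 0 of the 7 windows and in 6.75% of all promoters. The TATA box letters TATAAA were found in 1 of the 7, that of Fos, and in 12.4% of all promoters. These matches describe letters only.

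Levels are given as CPM, the UMIs of a gene per 1000000 UMIs summed over the cells of a class in a library, and libraries are listed in the order of replicates 1, 2 and 3. Total UMIs per library, over all barcodes, ranged from 5471573 to 37795021, and 28 barcode sequences occurred in at least 2 libraries. Several clusters came mostly from a single library, among them the oligodendrocyte cluster ODC_10 (458 of 503 cells from 3m replicate 1) and astroglial sub-cluster 1 (1156 of 1211 cells from P3 replicate 1). Clusters had been built by the authors from the same expression data, and no removal of the members is described. Differences between clusters are therefore not taken as independent of these genes. Sums were compared with edgeR's quasi-likelihood test, and calls required padj (Benjamini-Hochberg adjusted p over all genes tested) of 0.05 or less together with a log2(fold change) of 1 or more in size.

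In astroglia, all 9 genes were lower at 3m than at P3. Apart from 8 cells, no astroglial sub-cluster held cells of both ages, so that the comparison is between all astroglia of each age, and age and sub-cluster cannot be told apart. Fos stood at 1673, 1432 and 2036 CPM in the P3 libraries and at 5.18, 14.6 and 8.15 CPM in the 3m libraries. The groups were far apart, with means of 1713 ± 304 (SD, n = 3) and 9.33 ± 4.84 CPM (SD, n = 3), and the log2(fold change) was -7.24 (SE 0.335, padj = 6.28e-09). Taken over all UMIs, Fos was 168-fold lower at 3m, with a 95% counting interval of 126 to 231 that covers counting error only. Calls towards lower levels at 3m were made for 16.3% of the 13530 genes tested (2204 genes) and calls towards higher levels for 15.8% (2140 genes); without TMM scaling these counts were 2790 and 1753. The median log2(fold change) of the 9 genes was -5.20, against -0.04 over all genes tested.

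Fosb, the close relative of Fos, stood at 63.1, 27.9 and 30.7 CPM at P3 and had 0 UMIs in each 3m library. With a floor of 3 UMIs over the 3m libraries, this made it at least 58.0-fold lower, and 0 of 1118 cells allows a share of up to 0.268% of cells with a UMI. Jun kept the highest share of its P3 level among the AP-1 members. It stood at 756, 588 and 628 CPM at P3 and at 147, 69.4 and 119.5 CPM at 3m (log2(fold change) -2.38, SE 0.247, padj = 5.18e-06). The Jun groups did not overlap, but every 3m library still held it clearly. Junb fell from 251, 371 and 374 CPM to 3.46, 11.9 and 6.79 CPM (log2(fold change) -5.20, SE 0.327, padj = 6.14e-08).

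Egr1 stood at 465, 336 and 413 CPM at P3 and at 0, 2.71 and 8.15 CPM at 3m. It was therefore close to absent from the UMIs of adult astroglia (log2(fold change) -6.54, SE 0.415, padj = 6.65e-08). Atf3 was low at both ages, at 9.41, 10.4 and 18.1 CPM at P3 and at 0, 1.63 and 0 CPM at 3m. These 3m values rest on 3 UMIs in all, and the ratio of 18.7 had a wide 95% counting interval of 6.39 to 90.9 (log2(fold change) -4.02, SE 0.674, padj = 0.000293). Ier2 fell from 312, 341 and 445 CPM to 6.91, 7.59 and 8.15 CPM (log2(fold change) -5.39, SE 0.242, padj = 5.14e-09).

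The antiproliferative Btg2 stood at 253, 115 and 121 CPM at P3, with replicate 1 high, and at 15.6, 11.4 and 10.9 CPM at 3m (log2(fold change) -3.52, SE 0.336, padj = 2.52e-06). The phosphatase Dusp1 showed the smallest fall. It stood at 73.2, 65.8 and 75.5 CPM at P3 and at 20.7, 11.9 and 19.02 CPM at 3m, without overlap (log2(fold change) -1.89, SE 0.204, padj = 7.09e-06). All 9 stayed called lower when the fit was restricted to sub-clusters assigned to the telencephalic lineage, and when progenitor clusters GPC_8 and GPC_9 and cluster AST_P3_19 were left out. Measures other than age also differed between the libraries of the 2 ages: the median UMIs per astroglial cell were 5456 to 9665 at P3 and 2977 to 5326 at 3m, and the mitochondrial share of UMIs was 1.27 to 2.47% at P3 and 5.97 to 8.18% at 3m. The summed oligodendrocyte markers reached 710 to 1872 CPM in 3m astroglia and 5.59 to 6.54 CPM in P3 astroglia. The part of depth, mitochondrial share and these transcripts in the fall was not tested.

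**Figure D1:**
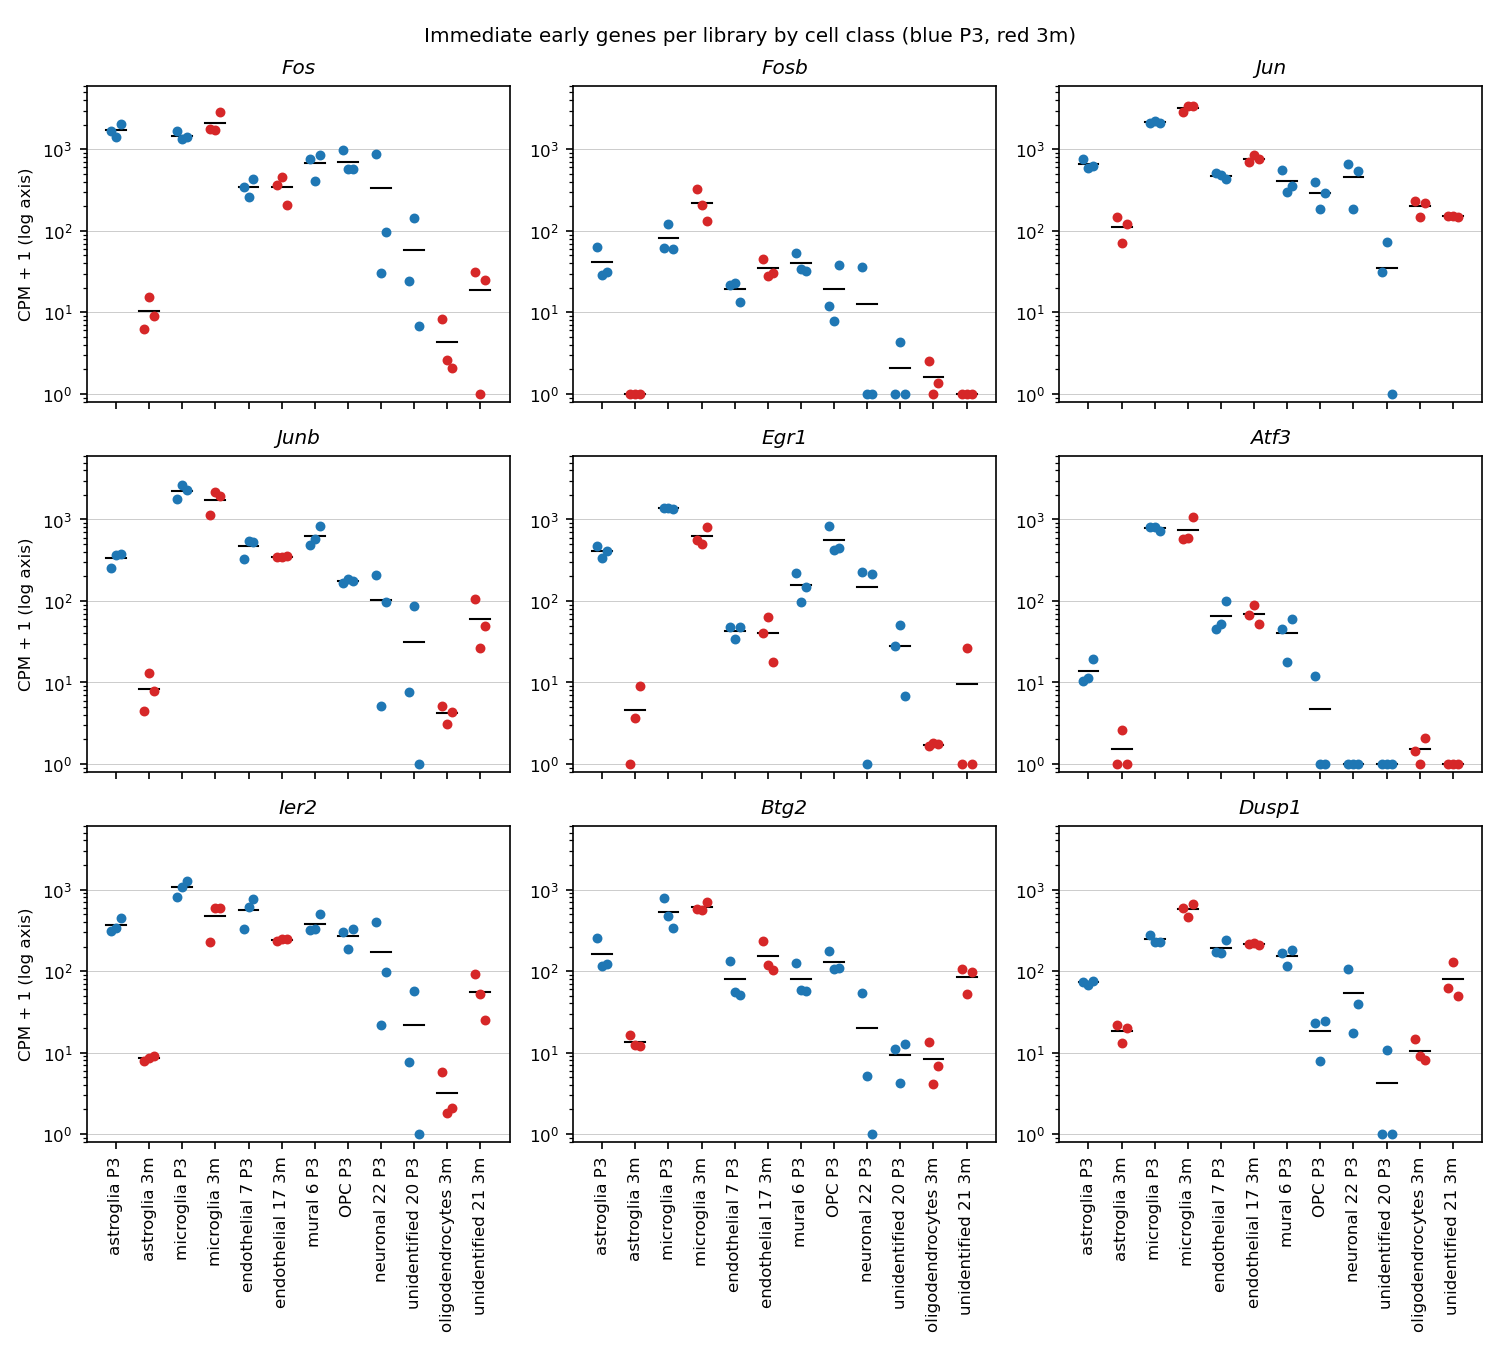
Level of each of the 9 genes (CPM + 1 on a log axis; 1 point per library, short lines for means) in the cell classes at P3 (blue) and 3m (red). Fos lies between 1432 and 2036 CPM in P3 astroglia and between 5.18 and 14.6 CPM in 3m astroglia, while microglia stay between 1354 and 2903 CPM over both ages.

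Differences in depth per cell were taken out by thinning each cell to 2000 UMIs, which left 7761 of the 8874 P3 astroglia and 906 of the 1118 3m astroglia. UMIs of at least 3 of the 9 genes were then found in 50.5, 49.2 and 51.3% of P3 cells and in 0, 0.494 and 0% of 3m cells. The shares did not overlap, and the exact two-sided permutation test gave p = 0.1, the smallest that 3 against 3 libraries allow. Without thinning, the mean shares were 70.7 and 1.21%. Cells with a UMI of none of the 9 genes made up 19.4, 15.3 and 14.3% at P3 and 68.0, 81.7 and 70.4% at 3m.

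Single genes gave the same order of ages. A Fos UMI was found in a mean of 67.1% of thinned P3 cells and 1.44% of thinned 3m cells, and an Egr1 UMI in 36.7 and 0.274%. Jun was the most often seen in adult cells, at 19.2% against 53.7% at P3. For comparison, cells with at least 3 of the 9 genes made up 0.422, 0.141 and 0% of 3m oligodendrocytes and 3.12, 3.03 and 0% of LOW_20, a P3 cluster the authors left unidentified. The mean share was 0.165% in 3m astroglia (2 of 906 cells) and 0.188% in oligodendrocytes (3 of 1697 cells), while that in P3 astroglia stood far above LOW_20.

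**Figure D2:**
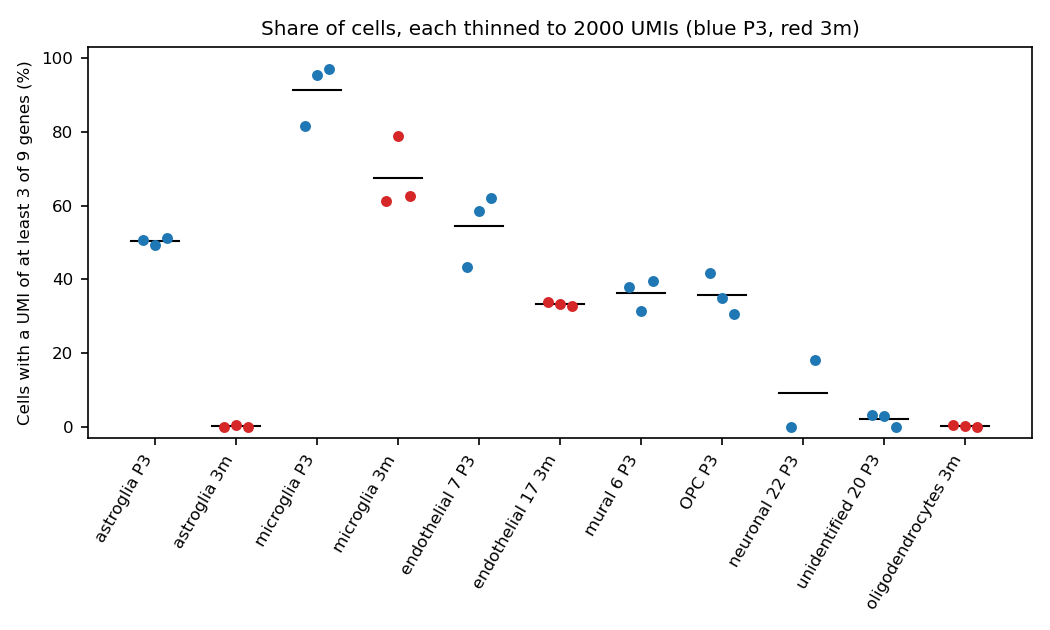
Percentage of cells with a UMI of at least 3 of the 9 genes after thinning to 2000 UMIs per cell, by cell class, with 1 point per library and lines for means (blue P3, red 3m); libraries with fewer than 10 such cells are not drawn. P3 astroglia lie between 49.2 and 51.3% and 3m astroglia between 0 and 0.494%, while the shares of microglia are 81.5 to 97.1% at P3 and 61.1 to 78.9% at 3m.

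Microglia, the resident immune cells of brain, formed cluster MIC_16 at both ages (34, 44 and 46 cells at P3, and 20, 23 and 17 cells at 3m). The 9 genes did not move together in these cells. Fos stood at 1659, 1354 and 1415 CPM at P3 and at 1787, 1707 and 2903 CPM at 3m. The 3m libraries were all above the P3 libraries, but the log2(fold change) of 0.63 (95% interval 0.11 to 1.15, padj = 0.109) did not pass the test. Among the 9, 2 were called higher at 3m, where 6.68% of 2679 genes tested were, and 2 were called lower, where 3.43% were. Over all genes this fit called 179 higher and 92 lower with TMM scaling, and 145 higher and 134 lower without it, and the all-gene median moved from -0.02 to -0.15.

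Dusp1 stood at 278, 225 and 228 CPM in P3 microglia and at 593, 457 and 656 CPM in 3m microglia, without overlap (log2(fold change) 1.32, SE 0.237, padj = 0.00194). Fosb rose from 60.5, 121 and 58.7 CPM to 326, 208 and 131 CPM (log2(fold change) 1.62, SE 0.375, padj = 0.0105). The lowest 3m value lay just above the highest P3 value. Egr1 stood at 1367, 1384 and 1343 CPM at P3 and at 563, 506 and 805 CPM at 3m, a fall of 1.04 on the log2 scale (SE 0.231, padj = 0.00835). Ier2 stood at 819, 1087 and 1274 CPM at P3 and at 227, 596 and 599 CPM at 3m (log2(fold change) -1.06, SE 0.320, padj = 0.043).

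Jun was at 2097, 2247 and 2126 CPM at P3 and at 2913, 3454 and 3390.0 CPM at 3m, and its log2(fold change) of 0.71 (padj = 0.0458) stayed under the fold threshold. Atf3 stood at 815, 805 and 725 CPM at P3 and at 583, 586 and 1068 CPM at 3m, and its log2(fold change) was 0.01 (95% interval -0.54 to 0.55). Junb (-0.24, padj = 0.62) and Btg2 (0.30, padj = 0.572) did not pass either. The microglial calls were less firm than the astroglial ones: when all sums were thinned to the smallest, 0 of the 9 were called in either direction, and without 3m replicate 1 Fosb was no longer called (log2(fold change) 1.18, padj = 0.195). The summed macrophage markers Mrc1, Lyve1 and Pf4 in MIC_16 were 66.8 to 428 CPM at P3 and 1311 to 2400 CPM at 3m, and the microglial list was 14770 to 17992 CPM at P3 and 25343 to 34088 CPM at 3m; the part of macrophages in the age differences was not tested.

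The P3 endothelial clusters END_12 (1, 2 and 346 cells) and END_13 (42, 15 and 282 cells) were left out of the comparisons between classes and ages. END_13 met the minimum of 10 cells per library, so the P3 endothelial values here describe END_7 alone. END_7 at P3 (173, 172 and 260 cells) was compared with END_17 at 3m (59, 47 and 57 cells). Age and cluster therefore cannot be told apart. Both clusters carried endothelial markers (4089 to 5817 CPM in END_7 and 9105 to 14391 CPM in END_17), mural markers (2090 to 3516 and 6409 to 7373 CPM) and, at higher sums, haemoglobin markers of blood (9588 to 26843 and 19162 to 42600 CPM); the part of these other transcripts was not tested. Fos stood at 348, 261 and 428 CPM in END_7 and at 366, 459 and 204 CPM in END_17. The groups overlapped, with a log2(fold change) of -0.13 (95% interval -0.64 to 0.38, padj = 0.723). Only Ier2 was called, from 329, 604 and 768 CPM in END_7 to 229, 245 and 246 CPM in END_17 (log2(fold change) -1.36, SE 0.267, padj = 0.000598), and 10.7% of the 10271 genes tested were called lower and 11.6% higher. Fosb (0.85, padj = 0.0458), Jun (0.58, padj = 0.0201) and Btg2 (0.90, padj = 0.0343) had positive log2(fold change) values under the fold threshold. Dusp1 stood at 172, 164 and 236 CPM and at 215, 222 and 209 CPM, a log2(fold change) of 0.07 (padj = 0.823). Median UMIs per cell were 22396 to 32603 in END_7 and 4258 to 8307 in END_17. The mitochondrial share was 1.25 to 2.33% in END_7 and 2.97 to 5.84% in END_17. The part of depth and mitochondrial share in this comparison was not tested.

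The difference between cell classes in the age change was tested itself, as an interaction in a fit with the library as a block. Relative to astroglia, the 3m over P3 change in microglia was higher for all 9 genes, in a fit where 1.86% of 9285 genes were called in that direction and 5.15% in the other, and the change from END_7 to END_17 was higher for all 9, where 8.34% of 12766 genes were (7.7% in the other direction). For Fos the differences of log2(fold change) were 7.47 (SE 0.340, padj = 2.49e-26) for microglia and 7.09 (SE 0.287, padj = 4.67e-14) for endothelial cells. For Dusp1, the least affected gene in astroglia, they were 2.82 (SE 0.301, padj = 1.02e-10) and 1.90 (SE 0.244, padj = 4.24e-06). Both tests use the same astroglial sums. In the microglial fit, 173 genes were called higher and 478 lower with TMM scaling, and 369 higher and 265 lower without it, with all-gene medians of -0.36 and 0.10. In the endothelial fit, the counts were 1065 and 983 with scaling and 1939 and 611 without it. All 9 genes were called higher in both fits under either scaling. With the stricter cell filter, which leaves fewer cells, Atf3 lost its call in both fits (2.81 for endothelial cells), and with thinned sums Atf3 (1.86) and Btg2 (2.25) lost theirs for microglia.

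**Figure D3:**
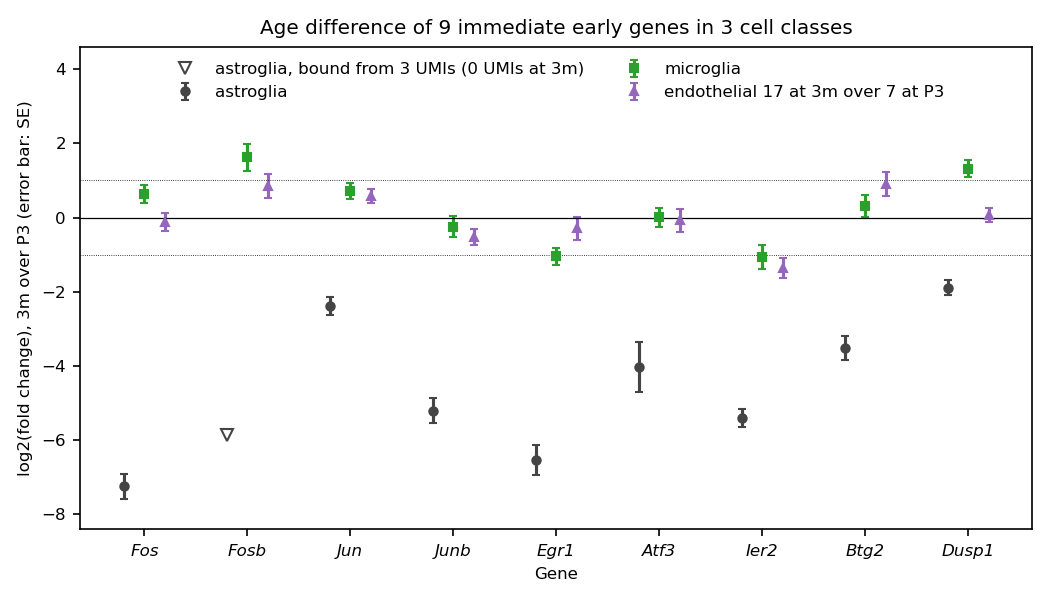
Log2(fold change) of each gene, 3m over P3, in astroglia, microglia and endothelial clusters, with bars of 1 SE and dotted lines at the fold threshold; the hollow triangle gives the bound for Fosb in astroglia, which had 0 UMIs at 3m. Astroglial values run from -7.24 (Fos) to -1.89 (Dusp1), while those of microglia and endothelial cells lie between -1.36 and 1.62.

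Among the 10 P3 classes ranked, microglia also had the highest mean levels of 8 of the 9 genes. The reference for these comparisons, called non-cycling P3 astroglia, was all P3 astroglia outside clusters GPC_8, GPC_9 and AST_P3_19, without a rule on cycle genes. These astroglia held Fos at 1825, 1535 and 2226 CPM. Microglia did not differ detectably from them (log2(fold change) -0.12, 95% interval -0.86 to 0.62, padj = 0.812). The other 8 genes were called higher in microglia, where 16.9% of the 10718 genes tested were (21.8% were called lower). Atf3 showed the widest gap. It stood at 9.07, 10.9 and 19.6 CPM in non-cycling astroglia and at 815, 805 and 725 CPM in microglia, a log2(fold change) of 6.19 (SE 0.252, padj = 6.68e-16). Junb followed, at 268, 371 and 388 CPM in astroglia and 1769.6, 2659.6 and 2309 CPM in microglia (log2(fold change) 2.93, SE 0.289, padj = 5.20e-09). Astrocyte markers summed to 401 to 4123 CPM in P3 MIC_16, and their part was not tested.

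END_7 differed in both directions from non-cycling astroglia, with 2 genes called higher (18.5% of all genes tested) and 4 called lower (22.4%). Egr1 stood at 46.9, 32.9 and 46.7 CPM in END_7 against 453, 299.7 and 397 CPM in astroglia, the widest gap downwards (log2(fold change) -3.13, SE 0.296, padj = 4.56e-10). Fos (-2.40), Btg2 (-1.27) and Fosb (-1.23) were lower as well. Atf3, at 44.0, 51.9 and 97.7 CPM in END_7, was higher by 2.33 (SE 0.221, padj = 1.16e-09), and Dusp1, at 172, 164 and 236 CPM against 82.5, 77.9 and 88.9 CPM, was higher by 1.23 (SE 0.150, padj = 4.97e-08).

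The pericyte cluster PER_6, with summed mural markers at 17329 to 19631 CPM and astrocyte markers at 1970 to 2457 CPM, was compared with the same astroglial sums. Fos stood at 754, 407 and 857 CPM in PER_6, all below the astroglial libraries (log2(fold change) -1.55, padj = 0.000649). Egr1 (-1.37) and Btg2 (-1.32) were the other genes called lower (19.1% of all genes tested), and Atf3 (1.62, padj = 2.36e-05) was called higher (16% of all genes tested). Ier2 did not separate the classes, with 319, 324 and 497 CPM in PER_6 and 316, 320.1 and 421 CPM in astroglia.

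Oligodendrocyte precursors (OPC_18; 12, 45 and 37 cells), the dividing progenitors of myelinating cells, overlapped astroglia in Egr1 and lay below them in Fos. Precursor markers summed to 1212 to 1873 CPM and astrocyte markers to 6920 to 8441 CPM in this cluster, and the part of the latter was not tested. Egr1 stood at 826, 422 and 447 CPM (log2(fold change) 0.23, padj = 0.66). Fos, at 981, 567 and 578 CPM, lay below every astroglial library (log2(fold change) -1.71, SE 0.383, padj = 0.00147). Dusp1 stood at 22.04, 6.91 and 23.3 CPM (log2(fold change) -2.71, SE 0.424, padj = 2.31e-05), and Jun (-1.65) and Junb (-1.26) were also called lower, a direction called for 10.8% of all genes tested (7.54% were called higher). The remaining 13 cells of this cluster came from 3m libraries and held Fos at 628, 433 and 321 CPM; no test was made on so few cells.

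The neuronal cluster NEU_22 (14, 23 and 16 cells), with summed neuronal markers at 2346 to 6649 CPM and astrocyte markers at 865 to 11937 CPM, was uneven. Fos stood at 869, 29.0 and 96.1 CPM and Ier2 at 399.6, 20.7 and 96.1 CPM, with replicate 1 the highest in each. All but Atf3, which had 0 UMIs, were called lower than in astroglia, where 13% of all genes tested were (9.59% were called higher), but without P3 replicate 2 the count was 4. LOW_20 held the lowest mean of Fos among the 10 P3 classes ranked, at 23.5, 141 and 5.81 CPM. Levels of neighbouring classes overlapped in the Fos order, which ran from non-cycling astroglia, microglia and GPC_8 (1465 ± 250 CPM, SD, n = 3) through GPC_9 (1041 ± 156 CPM), AST_P3_19 (875 ± 283 CPM), OPC_18, PER_6, END_7 and NEU_22 to LOW_20. The one exception was the step from GPC_8 to GPC_9, where the libraries did not overlap.

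At 3m, the order of cell classes was different in form: microglia and endothelial cells stood far above astroglia for every member. In microglia, 9 of 9 genes were called higher than in astroglia, against 14.8% of the 8192 genes tested, with a median log2(fold change) of 7.08 where that of all genes was -0.36. Atf3 was higher by 9.64 on the log2 scale (SE 0.396, padj = 2.40e-33), although the astroglial side rests on 3 UMIs (ratio 1022, 95% counting interval 344 to 5003). Fos was higher by 7.47 (SE 0.268, padj = 2.09e-37), and Fosb, absent from the astroglial UMIs, was at least 356-fold higher. Oligodendrocyte markers summed to 150 to 2360 CPM in 3m MIC_16.

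In END_17, 9 of 9 genes were called higher than in 3m astroglia, against 21.9% of all genes tested. Fos stood at 366, 459 and 204 CPM (log2(fold change) 4.69, SE 0.280, padj = 5.19e-25), Junb at 342, 346 and 355 CPM (5.13, SE 0.247, padj = 2.87e-30), and Jun at 692, 852 and 757 CPM (2.46, SE 0.201, padj = 3.78e-18). The median over the 9 genes was 4.63. LOW_21, a 3m cluster with mural markers at 36286 to 50079 CPM, held few UMIs in all; Junb (2.44), Ier2 (2.33), Btg2 (2.00) and Dusp1 (1.43) were called higher (10.2% of all genes tested; 18.7% were called lower), and 0 were called without 3m replicate 1.

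By the fit, oligodendrocytes (474, 735 and 522 cells) held several members below the level of 3m astroglia, on few UMIs. Fos stood at 7.29, 1.57 and 1.11 CPM (log2(fold change) -1.48, SE 0.427, padj = 0.00186), and Egr1 (-2.29), Ier2 (-1.63) and Junb (-1.32) were also called lower, a direction taken by 23.4% of all genes tested (16.2% were called higher). Libraries of both classes overlapped for Fos, Egr1 and Junb but not for Ier2. In oligodendrocytes and astroglia, the UMIs were 43 and 45 for Fos, 8 and 17 for Egr1, 28 and 34 for Ier2, and 36 and 36 for Junb. The total UMIs were 11189465 and 4473981. Jun had the opposite sign. It stood at 235, 149 and 217 CPM, all above the 3m astroglial libraries, and its log2(fold change) was 0.79 (padj = 0.000221), which stayed under the fold threshold.

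Within P3 astroglia, levels varied among the authors' sub-clusters. These values are descriptions, since the sub-clusters were formed from the same expression data. Sub-cluster 9 (9, 133 and 278 cells) had Fos at 5149.9, 3694 and 5057 CPM, and sub-cluster 1, mostly cells of replicate 1, at 2019, 3370.0 and 5508 CPM, whereas sub-cluster 0 (115, 976 and 739 cells) had it at 796, 954 and 887 CPM. Junb stood at 906, 1069 and 1134 CPM in sub-cluster 9 and at 94.0, 289 and 201 CPM in sub-cluster 0. Both sub-clusters belong to the telencephalic group. After thinning, UMIs of at least 3 members were found in 97.7 and 98.2% of cells of sub-cluster 9 in replicates 2 and 3, and in 28.0, 41.0 and 28.3% of cells of sub-cluster 0.

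Sub-cluster 11 was low in Fos as well, at 797, 715 and 708 CPM, while sub-cluster 2 lay between, at 1862, 1722 and 2524 CPM. Sub-cluster 5, one of the non-telencephalic group, split by library. Its Fos level was 429.8 CPM in P3 replicate 1 and 1389 and 2049 CPM in the others, and its Egr1 level was 27.6 CPM against 157 and 135 CPM. The original cluster AST_P3_1 (93, 733 and 645 cells) had the same low library, with Fos at 547, 1849.8 and 2146 CPM and Ier2 at 34.4, 180.3 and 184 CPM. Over astroglia as a whole, P3 replicate 1 was the highest of the 3 libraries for Btg2, Fosb, Jun and Egr1, the lowest for Junb, Ier2 and Atf3, and the middle one for Fos and Dusp1.

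**Figure D4:**
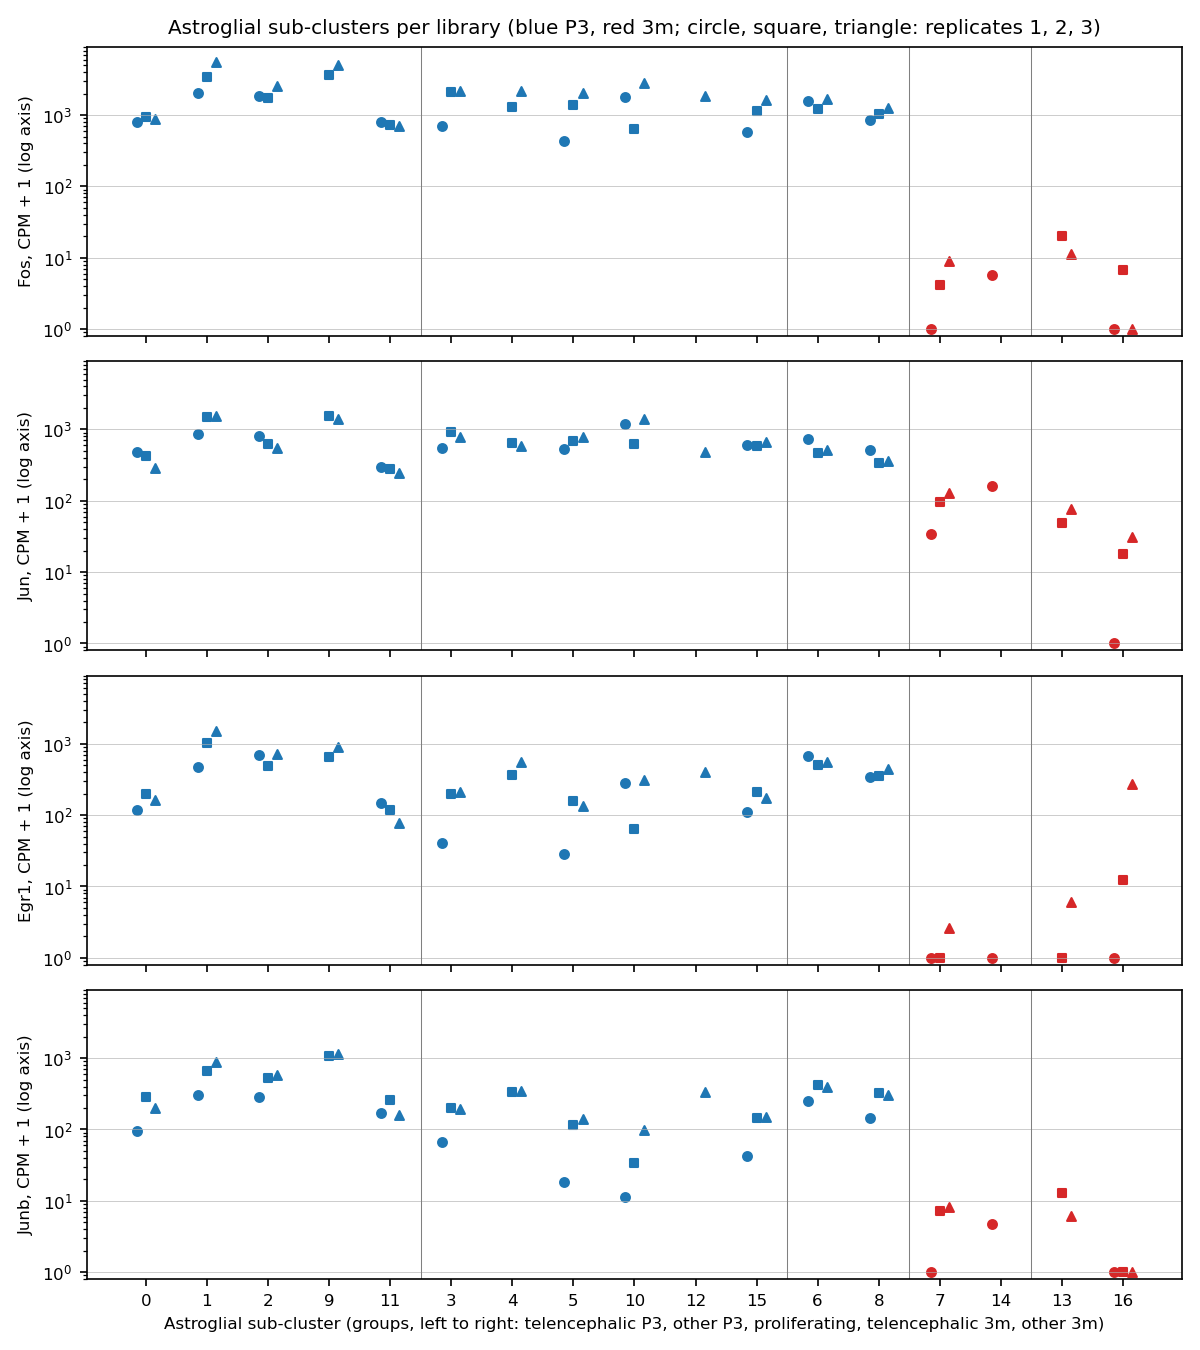
Levels of Fos, Jun, Egr1 and Junb (CPM + 1, log axis) in the astroglial sub-clusters, 1 point per library with at least 10 cells (blue P3, red 3m). Fos reaches 3694 and 5057 CPM in sub-cluster 9 and 5508 CPM in P3 replicate 3 of sub-cluster 1, lies at 796 to 954 CPM in sub-cluster 0, and is at 0 to 8.08 CPM in the 3m sub-cluster 7.

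Of the adult sub-clusters, number 7 held Fos at 0, 3.11 and 8.08 CPM, and number 13 held it at 19.1 and 10.2 CPM in replicates 2 and 3. Sub-cluster 14, with 182 cells of 3m replicate 1, is not listed here. Over all astroglia of that library, Fos stood at 5.18 CPM. Jun in sub-cluster 7 stood at 33.2, 96.3 and 128 CPM. A high Egr1 value in sub-cluster 16 (270 CPM in 3m replicate 3, with 0 and 11.3 CPM in the others) came from 9 UMIs in 18 cells. These 9 were among the 17 Egr1 UMIs of all 3m astroglia.

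Cycling cells were defined among P3 astroglia by UMIs of at least 2 of the 3 cycle genes Mki67, Top2a and Cdk1 after thinning, and made up 8.52, 6.97 and 7.85% of cells (165, 208 and 223 cells). At 3m, 0 of 906 thinned astroglia met this rule, which allows a share of up to 0.331%. Btg2 was the only member called, at 105, 56.0 and 57.8 CPM in cycling and 280.2, 124 and 129.8 CPM in non-cycling cells. It was lower in each of the 3 libraries (log2(fold change) -1.17, SE 0.0826, padj = 1.51e-14), a direction called for 8.09% of the 13209 genes tested, where 6.96% were called higher. Dusp1, at 47.9, 36.3 and 25.6 CPM against 78.0, 70.4 and 80.5 CPM, had a log2(fold change) of -0.97 (SE 0.108, padj = 1.70e-09), just under the fold threshold.

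Egr1 had the opposite sign, at 512, 497 and 527 CPM in cycling and 457, 314 and 390.2 CPM in non-cycling cells (log2(fold change) 0.51, SE 0.0826, padj = 2.46e-06). Fos stood at 1223, 1283 and 1557 CPM and at 1756, 1459.8 and 2102 CPM, below its non-cycling value in every library by a modest step (-0.29, padj = 0.00593). Junb did not separate the states (-0.11, padj = 0.258).

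Other genes of the pathway were taken from 5 lists: other AP-1 genes, other early response genes, other dual-specificity phosphatases, upstream kinases and factors, and heat shock genes. The lists were chosen with earlier results of these data known, so their counts beside the shares of all genes are descriptions. In the age comparison of astroglia, 21 of 32 other early response genes tested were called lower and 0 higher, where 16.3% of all genes were called lower and 15.8% higher. Socs3, a feedback inhibitor of cytokine signalling, fell from a mean of 209 to 0.181 CPM (log2(fold change) -9.63), Nr4a1, an orphan nuclear receptor, changed by -7.49, and Zfp36, which destabilises mRNAs, fell from 101 to 2.25 CPM (-5.31). The 3m means of Socs3 and Nr4a1 lay near the floor, at 0.181 and 0.226 CPM (SD 0.313 and 0.392 CPM), so the size of their falls is uncertain. The median of this list was -1.92. Of 7 other AP-1 genes 4 were called lower, among them Jund (-1.27, from 515 to 186 CPM), and so were 3 of 7 other phosphatases. Of 18 upstream kinases and factors, 1 was called, Elk3 (-1.73), a partner of serum response factor. Heat shock genes were called lower in 6 of 13, led by Hsp90ab1 (-1.92), Dnajb1 (-1.66) and Hspd1 (-1.46).

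In microglia, the early response list had 5 of 17 genes called higher at 3m and 0 lower (6.68 and 3.43% of all genes), with Klf4 (2.83), Sgk1 (2.03) and Socs3 (1.55) the largest. The heat shock genes Hspa1b (6.15, from 4.22 to 364 CPM) and Hspa1a (4.72, from 20.4 to 505 CPM) were called higher, and 2 of 10 genes of that list were in all. Of 2 other phosphatases 1 was called, Dusp2 (-1.96), and 0 of 2 other AP-1 genes and 0 of 5 upstream genes were. In the endothelial clusters, 5 of 28 early response genes were called higher and 2 lower, shares near those of all genes (11.6 and 10.7%), with Plk3 (-1.58), Gadd45g (1.43) and Ier3 (1.20) among them. The inducible Hsp70 genes Hspa1a (4.74) and Hspa1b (4.68) and the small heat shock gene Hspb1 (3.04) were again higher, 3 of 13. The phosphatases Dusp2 (-6.69) and Dusp6 (-1.90) were lower, 2 of 4, and Maff (-1.29), Fosl2 (1.26) and Mrtfb (1.42) were the genes called from the AP-1 and upstream lists.

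Between classes, 17 of 28 early response genes were called higher and 3 lower in P3 microglia relative to non-cycling astroglia (16.9 and 21.8% of all genes), led by Ier5 (5.28), Nfkbiz (4.61) and Ier3 (4.53), with Dusp2, Dusp5 and Dusp6 making 3 of 5 other phosphatases. At 3m, 18 of 23 were called higher and 1 lower in microglia (14.8 and 23.4% of all genes), led by Klf2 (9.56), Socs3 (9.24) and Ier3 (8.81). The astroglial means behind these values were low, at 1.63, 0.181 and 1.06 CPM. The counts were also 18 and 1 in END_17 (21.9 and 23% of all genes), and 4 and 8 in oligodendrocytes (16.2 and 23.4%). In cycling P3 astroglia, 1 of 32 was called higher (Egr3, 1.28) and 3 lower, among them Klf2 (-1.07), where 6.96 and 8.09% of all genes were.

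The genes most like the 9 members were sought over 30 P3 sums of a class in a library, as the Pearson correlation with the members' mean scaled level among 6302 genes. Klf6, an early response transcription factor, was the closest non-member (r = 0.957), followed by Mfsd1 (0.927), Ctsz (0.920), Cyfip1 (0.9125), Nfe2l2 (0.910), Tpp1 (0.905), Lamp1 (0.897), Dusp6 (0.895), Lamp2 (0.891) and Tram1 (0.887). The points share libraries and 3 of them are microglial sums with high levels of most members, so these values describe the pattern across classes only.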

How the data were processed

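The series holds 6 scRNA-Seq libraries (3 per age). Per the labels and methods, the authors aligned reads to mm10 with Cell Ranger, kept barcodes with more than 500 genes and less than 10% mitochondrial UMIs, and clustered cells with Seurat (3.1.1 in the submitters' processing notes; the methods name a later version). The deposited table holds raw UMI counts per gene and barcode; the deposited annotation table, which lists cluster and sub-cluster names, was used as given, and all 14373 annotated cells passed the stated filter. The members and gene lists were chosen with earlier results of these data known.

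Counts were summed per library and class in Python 3.11.15; sums of fewer than 10 cells were not used in tests. They were compared in R 4.3.3 with edgeR 4.0.16 (filterByExpr, TMM scaling, two-sided quasi-likelihood tests), without a block between ages and with the library as a block within an age and in the interactions, in which each class has its own age term. Classes of 1 age shared a fit. DESeq2 1.42.0 was an alternative. The fits were tested on simulated data. For cell shares, UMIs of each cell were drawn down to 2000 at random, cells below that depth were dropped, and libraries were compared by an exact permutation test. The SE of an edgeR log2(fold change) was its size divided by the square root of the quasi-likelihood F, and its 95% interval was built from that SE. Intervals on ratios of pooled UMIs are exact 95% intervals for counting error. Doublets were not removed; an alternative left out the 5% deepest cells of each library. From each list, the 3 genes of largest absolute log2(fold change) were named among called genes whose mean reached 20 CPM at the higher level; the 10 closest non-members were named by correlation. Whether preparations of 1 age shared litters is not given, and p-values measure the spread between these preparations of pooled animals.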

Additional observations from a re-analysis of the deposited data

Results flagged for a closer look

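With the settings of the report, the difference between 3m and P3 of every member differed between cell classes. This was tested as an interaction term in edgeR's quasi-likelihood fit, with 3 libraries per age. In the members' direction, 1.86% of 9285 genes were called for microglia and 8.34% of 12766 for the endothelial clusters. Age and cluster cannot be told apart in the endothelial clusters, nor age and sub-cluster in astroglia. Values are the log2(fold change), 3m over P3, of the other class minus that of astroglia, and all were positive with padj of at most 0.000144. For microglia, the differences were 7.47 for Fos, 2.72 for Jun, 4.63 for Junb, 5.15 for Egr1, 3.57 for Atf3, 3.96 for Ier2, 3.40 for Btg2 and 2.82 for Dusp1. For the endothelial clusters, END_17 at 3m over END_7 at P3, they were 7.09 for Fos, 2.91 for Jun, 4.64 for Junb, 6.27 for Egr1, 4.003 for Atf3, 4.05 for Ier2, 4.27 for Btg2 and 1.90 for Dusp1. The fitted differences for Fosb were 12.33 for microglia and 12.001 for the endothelial clusters; since Fosb had 0 UMIs in 3m astroglia, these depend on the prior count and are not bounds. The microglial call was kept in 12 of 14 settings tried for Atf3 and 13 of 14 for Btg2, and the endothelial one in 13 of 14 for Atf3; the other members were called in every setting that gave a value. Both sets share the astroglial sums and are not independent of each other.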

How the results depend on the processing

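Of 368 recomputed member counts and shares, 332 stayed within 1.5 times or 1 SD of the reported value. The 332 include counts of 0 that stayed at 0, such as that of members called higher by age in astroglia. Of 1607 recomputed log2(fold change) values, 1479 kept direction and side of the threshold, 69 lost and 21 gained the threshold, and 38 changed sign. The cause of the following changes was not tested. The age count in astroglia stayed at 9 lower under every alternative except thinned sums (8).

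Thinning each sum to the smallest, which leaves fewer UMIs and genes, gave for the microglial age count 0 higher and 0 lower, for the endothelial one 1 higher, for END_7 at P3 0 higher and 2 lower, for NEU_22 3 lower, for OPC_18 2 lower, for PER_6 0 higher, for LOW_21 1 higher, for oligodendrocytes 0 lower and for cycling cells 2 lower. The stricter cell filter gave 1 lower in microglia by age, and left too few cells in NEU_22 and LOW_21. NEU_22 had 5 lower without scaling, with DESeq2 and without the 5% deepest cells, a setting that gave END_7 2 lower. Cycling cells had 2 lower without scaling, without the low-count filter, with sub-clusters 6 and 8 as the cycling class and with thinned UMIs. The difference in shares, -50.2 percentage points, was -69.5 without thinning and -32.9 at 1000 UMIs.

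Signs changed as follows. The age value of Atf3 in microglia (0.01) was -0.11 without scaling, -0.30 without the low-count filter, -0.052 without the deepest cells and -0.022 with the replicate block; in endothelial clusters (-0.07) it was 0.048 without scaling, 0.077 with thinned sums, 0.28 without the deepest cells and 0.032 with the block. Dusp1 in endothelial clusters (0.07) was -0.056 without the filter and -0.00176 with stricter cells. Fos in P3 microglia (-0.12) was 0.044 with RLE scaling and 0.038 with DESeq2. Ier2 in PER_6 was -0.26 and Btg2 in oligodendrocytes 0.67 with thinned sums, Junb in cycling cells 0.0075 with sub-clusters 6 and 8, and in LOW_21 Fosb was 4.43 and Atf3 2.06 with DESeq2 and Jun 0.43 without scaling and 0.67 with thinned sums.

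Leaving out 1 library gave 1 to 2 higher and 0 to 2 lower in microglia by age, 0 to 1 higher in endothelial clusters, 4 to 8 lower in NEU_22, 0 to 4 higher in LOW_21, 2 to 6 lower in oligodendrocytes (2 without 3m replicate 2) and 1 to 2 lower in cycling cells. Values ranged from -0.32 to 0.085 for Atf3 in microglia by age, and in endothelial clusters from -0.41 to 0.10 for Fos, -0.67 to 0.0025 for Egr1, -0.31 to 0.41 for Atf3 and -0.019 to 0.29 for Dusp1. They ranged from -0.30 to 0.031 for Fos in P3 microglia, from -0.41 to 0.031 for Fosb and -0.0093 to 0.18 for Ier2 in PER_6, from -1.70 to 2.92 for Atf3 in oligodendrocytes and from -0.18 to 0.043 for Junb in cycling cells. In LOW_21 they ranged from -0.53 to 1.30 for Fos, -0.18 to 0.024 for Fosb, -0.52 to 0.041 for Jun, -5.38 to 1.83 for Egr1 and -3.47 to 0.042 for Atf3.

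Without TMM scaling, the split of all genes (higher and lower) moved from 1028 and 1392 to 1291 and 975 in NEU_22, from 808 and 1158 to 1132 and 841 in OPC_18, from 1795 and 1881 to 2370 and 1497 in END_17, and from 832 and 1531 to 1370 and 856 in LOW_21. Replicate numbers did not pair the ages (correlations of same-numbered deviations 0.2079, 0.1003 and 0.03945); with the replicate block the age counts of members were 0 higher and 9 lower in astroglia, 2 and 2 in microglia and 0 and 1 in endothelial clusters, and without the library block the only count to move was that of OPC_18, to 3 lower.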

Other observations

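Cluster AST_3m_5, which is almost wholly adult, also held 8, 6 and 3 cells from the P3 libraries. Their Fos level was 809, 1398 and 796 CPM (12, 29 and 4 UMIs), against 4.59, 11.1 and 7.92 CPM in the 3m cells of the same cluster. These P3 cells lay above every 3m value of the cluster and below the P3 astroglial sums of all 3 libraries; no test was made on so few cells.

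Barcodes that the authors' filter had rejected held Fos at 90.5, 193 and 1368 CPM in the P3 libraries (92, 137 and 543 barcodes) and at 11.2, 4.53 and 2.64 CPM in the 3m libraries (852, 370 and 323 barcodes). P3 replicate 3 stood far above the other libraries, and all 3 P3 values lay above the 3m values.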
